A study of Mus musculus with 25 samples.

Results

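Monocyte-derived macrophages (MDM) sorted from mouse glioblastomas labelled type 2 were compared with MDM from tumours labelled type 1, over a spontaneous and a transplanted tumour model. All 9 MDM libraries of the 21 libraries analysed entered the comparison, taken by the tumour type, model and cell type of their labels. The 3 type 2 libraries were 1 from a spontaneous tumour (replicate 3) and 2 from transplanted tumours (replicates 1 and 3). The 6 type 1 libraries were 2 from spontaneous tumours (replicates 1 and 2) and 4 from transplanted tumours (replicates 1 to 4). These numbers are those of the sample descriptions, and the titles number 3 of the 21 libraries otherwise, the type 2 spontaneous MDM library among them. Microglia libraries, 3 for each tumour type and model, served as a second cell type, and 4 normal brain microglia samples of the 25 labelled samples were not analysed here. The labels state no growth condition or treatment for any sample. They give the tumour as tissue and name no strain, genotype, driver, sex, age or sort gate, and they do not say what the numbers 1 and 2 of the tumour types stand for. The series title calls the models lineage-based and concerns tumour progression and tumour-associated macrophages. The comparison addresses how the libraries labelled MDM differ between the tumour types, and these libraries also held transcripts of T, NK and B cells. Whether each library stands for its own animal is not stated, so the p-values speak of the variation among these libraries, part of which may be technical.

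Monocytes leave the blood, enter a brain tumour and become macrophages there, while microglia are the macrophages that settle in the brain before birth. Both kinds engulf debris, present antigen to T cells and secrete factors that act on blood vessels, matrix and lymphocytes. In libraries made from many cells, fewer cells of a type and less RNA per cell cannot be told apart.

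Each MDM library held 26530069 to 42925260 reads, recovered from the deposited values, and 16883 to 21435 genes were detected in it. Levels are read counts divided by the size factor of the library (normalised counts). A fold is a difference of log2(normalised count + 1), type 2 minus type 1, with the standard error of the fit after ±. A gene counts as called where its p from limma-trend, adjusted after Benjamini and Hochberg, was under 0.05, in a fit with tumour type and model over 15425 genes. On the labelled cell type, summed normalised counts of 27 homeostatic microglia markers were 79707 to 542328 in MDM and 1181798 to 2835783 in microglia, without overlap. The 28 MDM markers summed to 225207 to 1175210 in MDM and 101855 to 256862 in microglia, with overlap, and type 1 transplanted MDM lay lowest among the MDM. The first principal component held 42.05% of the variance. On it the 4 type 1 transplanted libraries lay at 81.17 to 105.29, type 2 transplanted replicate 1 at 23.96, and the other 4 libraries at -125.03 to -76.86.

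Between type 2 and type 1 MDM, 50 of 15425 genes were called (0.324%), and 49 of them fell in type 2 (0.318%) while 1, Gatm, rose. Transcripts of T cells led the falls. Of 21 tested T cell markers 11 fell, none rose and all had a negative fold, with a median fold of -3.43 beside -0.03 over all tested genes. No other list of the 45 had more than 1 member called over both models. At an unadjusted p under 0.05 there were 2435 genes. The fold of all 50 had the same sign in both models, and in each of the 50 the types did not overlap within the spontaneous or within the transplanted libraries, as was so for 870 tested genes lower and 795 higher in type 2. Across models, 27 of the 50 had every type 2 library below every type 1 library, beside 361 of all tested genes (2.34%). The opposite order was found for 338 genes (2.19%) and for none of the called genes. The count of calls rested on the libraries: without 1 library it ranged from 9 (without type 1 transplanted replicate 2 or 3) to 310 (without the type 2 spontaneous library), with all 50 folds keeping their sign. The 50 were selected on these same libraries. Their shared signs and their lack of overlap were thus in part built in and are no separate support for the calls. Without the 4 type 1 transplanted libraries together, only the spontaneous libraries hold both types. The fit then sets 1 type 2 library against 2 of type 1. Its folds are the spontaneous folds, whose sign was counted above, so it adds no further check.

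**Figure D1:**
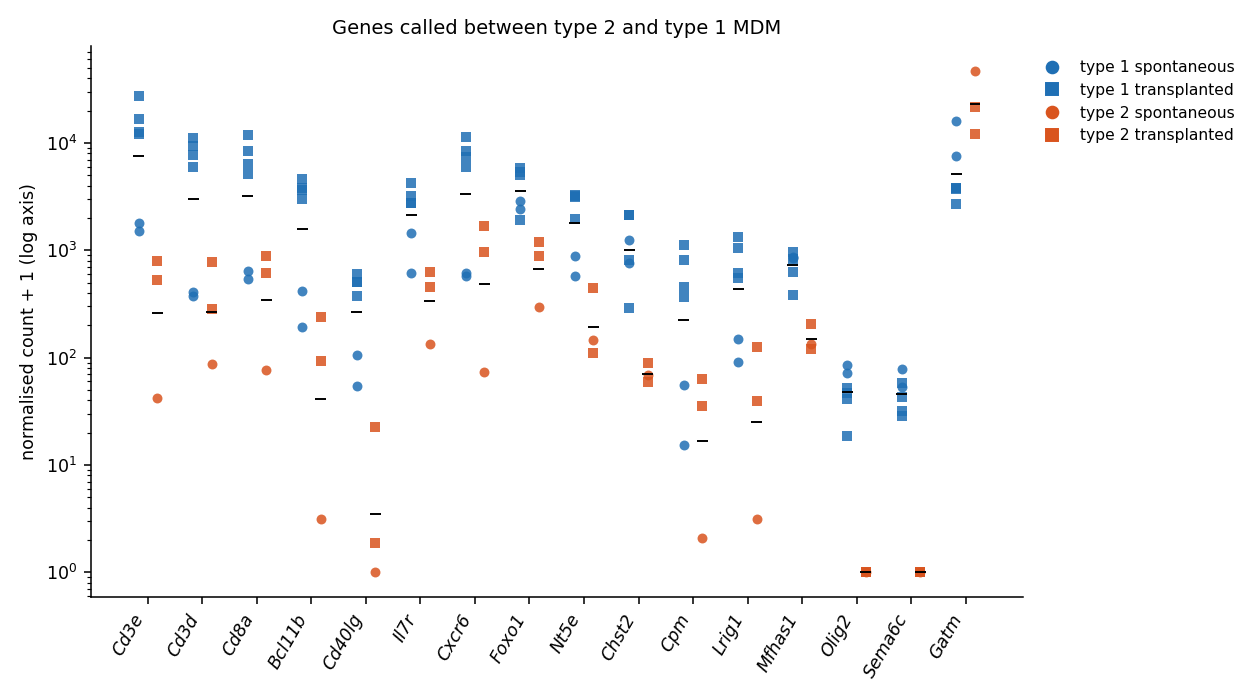
Normalised count + 1 (log axis) of 16 of the 50 genes called between type 2 and type 1 MDM. Each point is 1 library, coloured by tumour type and shaped by model, and black bars are means of the log values. The type 2 points lie below the type 1 points of the same model in every gene but Gatm, where they lie above.

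The T cell receptor is carried to the surface and coupled to signalling by the CD3 chains, encoded by Cd3g, Cd3d and Cd3e side by side on chromosome 9. The upstream sequences of these genes, whose transcripts fell together, are shown because the genes are neighbours and their starts are close: 1355 bases separate the starts of Cd3g and Cd3d and 27825 those of Cd3d and Cd3e in RefSeq (GRCm38.p6). Each run below holds the 250 bases before the start that the promoter table lists, read 5′ to 3′ on the strand of the gene. For Cd3d and Cd3e the gene span in RefSeq reaches past that start into the run, so part of those runs can be transcribed. A stretch of bases after the listed start was found in GENCODE transcripts of Cd3g and Cd3d but not in those of Cd3e. The Cd3e start, its run and its distance from Cd3d are therefore less certain. Capitals mark matches, on either strand, to letters tied to T cell regulators: AGATAA for GATA factors and CTTTGA or its reverse TCAAAG for TCF factors.
Cd3g upstream, chr9:44980432-44980681, minus strand: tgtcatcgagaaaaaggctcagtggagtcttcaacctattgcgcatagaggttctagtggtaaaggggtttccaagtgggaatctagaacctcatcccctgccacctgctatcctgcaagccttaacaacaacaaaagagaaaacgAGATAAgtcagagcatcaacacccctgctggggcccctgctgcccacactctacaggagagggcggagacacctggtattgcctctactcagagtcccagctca
Cd3d upstream, chr9:44981536-44981785, plus strand: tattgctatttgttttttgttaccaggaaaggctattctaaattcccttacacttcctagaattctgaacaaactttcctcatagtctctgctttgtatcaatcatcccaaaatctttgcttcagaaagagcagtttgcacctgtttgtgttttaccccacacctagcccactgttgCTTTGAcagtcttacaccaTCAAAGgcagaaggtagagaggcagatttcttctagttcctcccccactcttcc
Cd3e upstream, chr9:45009612-45009861, minus strand: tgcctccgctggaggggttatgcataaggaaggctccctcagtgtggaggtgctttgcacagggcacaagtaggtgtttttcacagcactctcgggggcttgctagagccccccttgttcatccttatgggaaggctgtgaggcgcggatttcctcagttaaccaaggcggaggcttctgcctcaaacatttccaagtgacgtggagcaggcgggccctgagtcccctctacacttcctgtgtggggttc
Cd3g holds 1 GATA match, Cd3d holds 2 TCF matches and Cd3e none, and neither TGTGGT (RUNX) nor CGGAAG (ETS) was found in the 3. In 32851 promoters of the same length, 9.99% held the GATA letters, 13.83% the TCF letters, 14.05% the RUNX letters and 13.59% the ETS letters, so matches are common and describe letters only.

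Cd3e was at 1785 and 1510 normalised counts in the type 1 spontaneous libraries and at 11984, 16689, 27570 and 12546 in the type 1 transplanted ones. In type 2 it was at 40.7 in the spontaneous library and at 524 and 790 in the transplanted ones. Every type 2 library lay below every type 1 library, and within type 1 the transplanted libraries lay above the spontaneous ones. Cd3e (RefSeq chromosome 9, 44998735 to 45009663) fell by 4.87 ± 0.30 on the log2 scale (limma-trend adjusted p = 0.000653). It stayed called without any 1 library. Cd3g was at 714 and 656 in type 1 spontaneous, at 8317 to 16531 in type 1 transplanted, at 72.9 in type 2 spontaneous and at 1256 and 548 in type 2 transplanted libraries. The types overlapped for Cd3g because type 2 transplanted replicate 1 lay above the type 1 spontaneous libraries, and the fold was -3.65 ± 0.33 (limma-trend adjusted p = 0.00314). Cd3d, at 376 and 406, at 5996 to 11088, at 86.8, and at 772 and 283 in the same order of groups, had a fold of -3.49 ± 0.45 (limma-trend adjusted p = 0.0170), a call that 3 of the 9 fits without 1 library lost.

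The co-receptor chains of cytotoxic T cells, Cd8a and Cd8b1, both fell. Cd8a was at 539 and 643 in type 1 spontaneous and at 5129 to 11944 in type 1 transplanted libraries, against 75.0 in type 2 spontaneous and 889 and 616 in type 2 transplanted ones. Its fold was -3.22 ± 0.29 and that of Cd8b1 -3.37 ± 0.26 (limma-trend adjusted p = 0.00314 and 0.00188). Cd4, the co-receptor of helper T cells, had a fold of -3.27 ± 0.78 that did not pass over both models (limma-trend adjusted p = 0.13), with 390 in the type 2 spontaneous library beside 544 and 455 in type 1 spontaneous. It passed within the transplanted libraries, at 442 and 107 in type 2 against 4697 to 6939 in type 1 (limma-trend adjusted p = 0.00691). The difference between the CD8 and CD4 chains was not tested.

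Other parts of T cell identity moved with the CD3 chains. Bcl11b, a transcription factor that commits cells to the T lineage, was at 414 and 194 in type 1 spontaneous, at 3027 to 4598 in type 1 transplanted, at 2.14 in type 2 spontaneous and at 236 and 92.6 in type 2 transplanted libraries. Its fold was -5.26 ± 0.46 (limma-trend adjusted p = 0.00314), called without any 1 library. Cd40lg, the helper T cell ligand that activates B cells and macrophages through CD40, was at 105 and 53.3 and at 377 to 606 in type 1, against 0 in the spontaneous and 21.5 and 0.873 in the transplanted libraries of type 2. Its groups did not overlap, and its fold was -6.25 ± 0.71 (limma-trend adjusted p = 0.0102), a call that 3 of the 9 fits without 1 library lost. The surface receptors Cd5 and Cd6 had folds of -4.03 ± 0.51 and -3.66 ± 0.48, the adaptor Lat, which relays the T cell receptor signal, -3.78 ± 0.57, and the costimulatory receptor Icos -2.75 ± 0.42 (limma-trend adjusted p = 0.0170, 0.0170, 0.0354 and 0.0354). Of the 9 fits without 1 library, 3 lost the call of Cd6, 4 that of Cd5 and 5 those of Lat and Icos.

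The 10 other tested T cell markers had negative folds without passing. They ran from -6.28 ± 1.35 for Foxp3, the regulator of regulatory T cells (limma-trend adjusted p = 0.107), to -1.54 ± 0.58 for the costimulatory receptor Cd28 (limma-trend adjusted p = 0.261). Foxp3 was at 286 and 338 and at 3738 to 6644 in type 1, and at 9.65, 624 and 1.75 in type 2, so that type 2 transplanted replicate 1 lay among the type 1 values. Tcf7, a factor of naive and memory T cells, came nearest to the threshold, at -4.02 ± 0.69 (limma-trend adjusted p = 0.0551). Lck, Zap70, Cd247, Thy1 and Ctla4 also missed it. Among called genes outside the T cell list, Il7r, the receptor for interleukin 7, was at 615 and 1445 and at 2751 to 4264 in type 1, and at 133, 626 and 452 in type 2, with a fold of -2.66 ± 0.30 (limma-trend adjusted p = 0.00986). Cxcr6, a chemokine receptor of tissue T cells and NK cells, had a fold of -2.79 ± 0.26, and Izumo1r, a folate receptor family protein of regulatory T cells, -4.05 ± 0.53 (limma-trend adjusted p = 0.00421 and 0.0187). Izumo1r lost its call in 3 of the 9 fits without 1 library, Il7r in 1 and Cxcr6 in 0. Foxo1, a transcription factor that controls Il7r in T cells and is also made elsewhere, was at 1932 to 5875 in type 1 and 295, 1189 and 876 in type 2, a fold of -2.41 ± 0.39 (limma-trend adjusted p = 0.0445); 8 of the 9 fits without 1 library lost its call.

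The T cell list had a mean level, over its 21 members as log2(normalised count + 1), of 8.96 and 8.85 in type 1 spontaneous libraries and 12.35 to 12.74 in type 1 transplanted ones. It was 6.38 in type 2 spontaneous and 9.59 and 7.29 in type 2 transplanted libraries. Within each model type 2 lay below type 1, while type 2 transplanted replicate 1 lay above the type 1 spontaneous libraries. The MDM markers had a mean level of 11.33 to 12.21 in type 1 transplanted libraries, below the T cell list there. They lay above it elsewhere, at 12.38 to 14.09 in type 1 spontaneous, 12.78 in type 2 spontaneous and 12.88 to 13.45 in type 2 transplanted libraries. The share of lymphocyte RNA in each library was not tested. Leaving out type 1 transplanted replicate 2, 3 or 4 reduced the 11 called T cell markers to 5 each. Without all 4 type 1 transplanted libraries the fit compares the types in the spontaneous libraries alone, where the median fold of the T cell list was -2.16. The 22 tested NK and cytotoxic cell markers had no call and a median fold of 0.08. Their mean level was 7.61 and 9.40 in type 1 spontaneous, 12.25 to 12.79 in type 1 transplanted, 10.17 in type 2 spontaneous, and 13.23 and 10.28 in type 2 transplanted libraries. The fixed NK genes Gzma, a granule protease, and Ncr1, an activating receptor, had folds of 1.13 ± 0.99 and 0.84 ± 0.89 (limma-trend adjusted p = 0.597 and 0.67). The 16 tested B and plasma cell markers had no call and a median of -1.43, and Cd79a, a chain of the B cell receptor, ran from 170 to 18347 in type 1 and from 695 to 15180 in type 2. Whether NK and T cell lists differed was not tested.

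**Figure D2:**
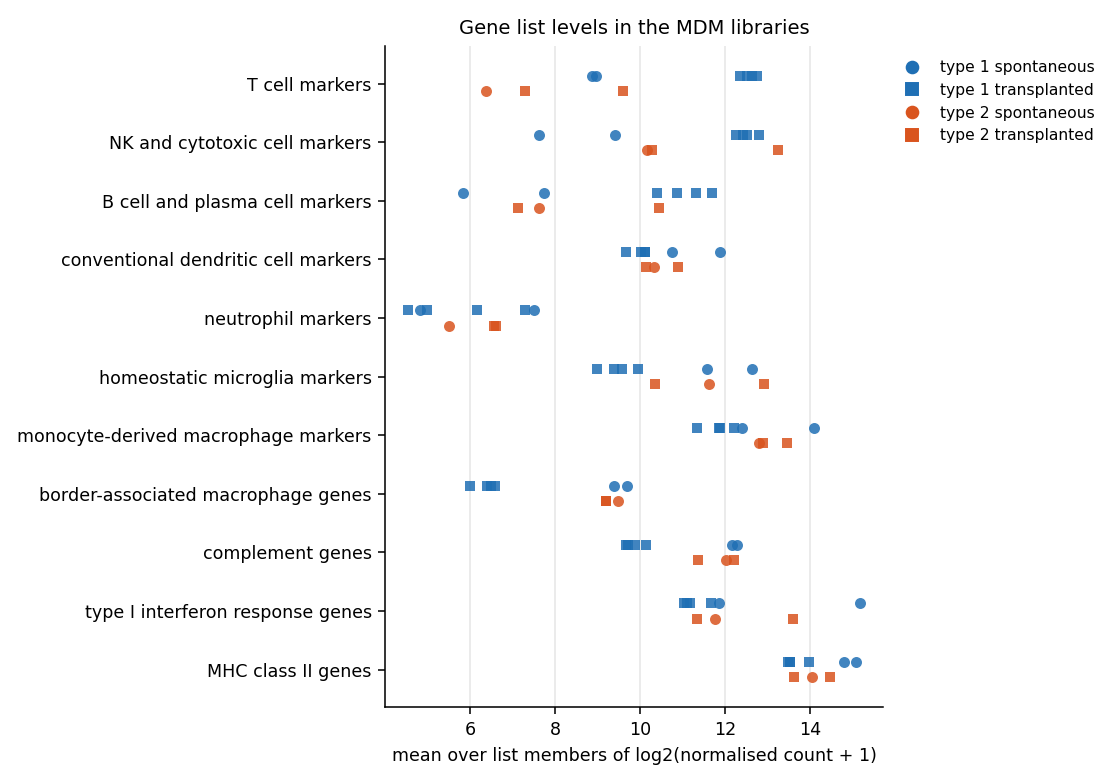
Mean log2(normalised count + 1) over the tested members of 11 gene lists (rows) in each of the 9 MDM libraries, coloured by tumour type and shaped by model. T cell markers were at 12.35 to 12.74 in type 1 transplanted and 6.38 to 9.59 in type 2 libraries, while NK markers of type 2 transplanted replicate 1 (13.23) lay above all type 1 libraries.

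The other called genes belonged to no single list. Sema6c, a transmembrane semaphorin, was at 77.4 and 52.0 in type 1 spontaneous and at 27.6 to 56.8 in type 1 transplanted libraries, and it had no read in any type 2 library. With 3 reads per library as the floor it was at least 15.3-fold lower in type 2 (limma-trend adjusted p = 0.00809), a call kept without any 1 library. Olig2, a transcription factor of oligodendrocyte progenitors and of many gliomas, was at 83.9 and 70.2 and at 17.6 to 51.5 in type 1 and had no read in type 2, at least 16.4-fold lower (limma-trend adjusted p = 0.00986), a call lost in 3 of 9 fits without 1 library. Of 10 tested oligodendrocyte progenitor markers Olig2 was the 1 called, with a median of -1.19 for the list. Sox2, a stem cell factor, was at 0 to 53.7 in type 1 and 0 to 4.29 in type 2 (limma-trend adjusted p = 0.272). Cdh5, the cadherin of endothelial junctions, was at 14.0 to 76.8 in type 1 and at 1.07, 0 and 0 in type 2 (limma-trend adjusted p = 0.0354). It was the 1 called of 11 tested endothelial and mural markers, whose median fold was 0.12, and 7 of the 9 fits without 1 library lost it.

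Other genes that fell stood on none of the 45 lists. Bmp7, a secreted bone morphogenetic protein, was at 63.5 and 46.8 in type 1 spontaneous, 590 to 951 in type 1 transplanted, 0 in type 2 spontaneous and 42.9 and 0.873 in type 2 transplanted libraries, a fold of -6.17 ± 0.83 (limma-trend adjusted p = 0.0195). Spock2, a matrix proteoglycan, had a fold of -5.74 ± 0.68, Ptpn13, a tyrosine phosphatase, -5.51 ± 0.86, Dapl1 -4.65 ± 0.71, and Penk, the precursor of enkephalin peptides, -4.46 ± 0.60 (limma-trend adjusted p = 0.0137, 0.0388, 0.0354 and 0.0194). All 5 were higher in the 4 type 1 transplanted than in the 2 type 1 spontaneous libraries, as the T cell list was. Nt5e, the ectoenzyme CD73 that makes adenosine from AMP, was at 571 and 884 and at 1966 to 3266 in type 1 against 144, 443 and 110 in type 2, with a fold of -3.22 ± 0.46 (limma-trend adjusted p = 0.0275). Of the 9 fits without 1 library, 3 lost the call of Spock2, 4 those of Bmp7, Penk and Nt5e, and 6 those of Ptpn13 and Dapl1.

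Some called genes did not share that order. Chst2, a sulfotransferase that modifies carbohydrate chains, was at 1233 and 758 in type 1 spontaneous and at 289, 2121, 2141 and 819 in type 1 transplanted libraries, and at 67.5, 58.4 and 87.3 in type 2. The groups did not overlap, and the fold was -3.81 ± 0.77 in transplanted, -3.82 ± 1.09 in spontaneous and -3.82 ± 0.60 over both (limma-trend adjusted p = 0.0423). Mfhas1, a leucine-rich repeat protein, was at 384 to 960 in type 1 and at 132, 205 and 121 in type 2, a fold of -2.28 ± 0.35 (limma-trend adjusted p = 0.0354). Paip1, which binds the poly(A)-binding protein in translation, was at 702 to 1703 in type 1 and 420, 180 and 257 in type 2, with a fold of -1.89 ± 0.26 (limma-trend adjusted p = 0.0230). Zxdc, a zinc finger protein, and Tmem64, a membrane protein, had folds of -1.68 ± 0.26 and -2.14 ± 0.35 (limma-trend adjusted p = 0.0354 and 0.0479). Of the 9 fits without 1 library, 5 lost the calls of Mfhas1 and Paip1, 6 those of Chst2 and Zxdc, and 7 that of Tmem64. In all 5 the types did not overlap, and in all but Tmem64 the type 1 spontaneous libraries lay within or above the range of the type 1 transplanted ones. Mfhas1, Paip1, Zxdc and Tmem64 were chosen after their values were seen, as were Foxo1, Nt5e, Tprgl, Odc1, Rora and Gpm6b.

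Genes with large falls in both models also included Cpm, a membrane carboxypeptidase, Lrig1, a negative regulator of growth factor receptors, Slain1, a microtubule protein, and Tdrp. Their folds over both models were -3.75 ± 0.55, -4.11 ± 0.53, -3.65 ± 0.56 and -4.28 ± 0.48 (limma-trend adjusted p = 0.0301, 0.0170, 0.0354 and 0.00986). Each overlapped between the types, since a type 2 transplanted library lay above a type 1 spontaneous one. Rora, a nuclear receptor of lymphoid cells, and Gpm6b, a membrane glycoprotein, had folds of -2.68 ± 0.35 and -2.68 ± 0.34 (limma-trend adjusted p = 0.0170 for both). Smaller called changes were those of Tprgl, at 7921 to 14221 in type 1 and 4190, 5991 and 6691 in type 2 (-1.05 ± 0.17), and Odc1, the first enzyme of polyamine synthesis, with -1.33 ± 0.22 (limma-trend adjusted p = 0.0453 and 0.0479). Leaving out 1 library lost the call of Tdrp in 2 of 9 fits, of Rora and Gpm6b in 3, of Lrig1 in 4, of Cpm and Slain1 in 5, of Tprgl in 6 and of Odc1 in 7.

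Gatm, the mitochondrial enzyme that starts creatine synthesis, was the 1 gene that rose. It was at 7488 and 16120 in type 1 spontaneous and at 3739, 3822, 2719 and 3794 in type 1 transplanted libraries. In type 2 it was at 46717 in the spontaneous and at 12034 and 21410 in the transplanted libraries. Type 2 lay above type 1 within each model, and the ranges of the types overlapped across models because type 1 spontaneous replicate 2 exceeded type 2 transplanted replicate 1. The fold was 2.17 ± 0.29 (limma-trend adjusted p = 0.0195), with 2.20 ± 0.37 in transplanted and 2.09 ± 0.52 in spontaneous libraries. The call was lost in 4 of 9 fits without 1 library, and the fold ran from 1.06 to 2.54 over 27 alternative fits. Gatm lies at 122594473 to 122611277 on chromosome 2 (RefSeq GRCm38.p6).

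The macrophage lists gave no call over both models. Of 28 MDM markers none was called, with a median fold of 0.62 and 24 positive folds, and of 27 homeostatic microglia markers none was called, with a median of 1.46. The border-associated macrophage genes had a median of 1.81 over 12 tested members, all positive, the complement genes 1.44 over 17 and the Fc receptor and C-type lectin genes 1.36 over 19. These medians differed by model. In the same order of lists they were 1.28, 2.32, 2.71, 2.29 and 2.00 in transplanted libraries. In spontaneous libraries, with 1 of type 2, they were -0.20, -0.39, 0.13, -0.14 and 0.065. Nearest to the threshold were Batf3, a transcription factor of dendritic cells and macrophages, at 334 to 693 in type 1 and 1298, 1205 and 1024 in type 2 (1.38 ± 0.24, limma-trend adjusted p = 0.0551), and Pf4, a platelet chemokine also made by border-associated macrophages (4.06 ± 0.74, limma-trend adjusted p = 0.0678). Pf4 was at 3.63 to 175 in type 1 and 627, 335 and 397 in type 2, without overlap. Ms4a7, a membrane protein of infiltrating macrophages, was at 276 to 3650 in type 1 and 4120 to 8792 in type 2, and Mmp12, macrophage elastase, at 27.7 to 464 in type 1 and 425 to 1304 in type 2. Their folds were 2.70 ± 0.52 and 3.14 ± 0.60 (limma-trend adjusted p = 0.0782 and 0.0803). Cst3, the protease inhibitor cystatin C, was at 30658 to 107830 in type 1 and at 223410, 111560 and 183350 in type 2, with a fold of 1.67 ± 0.31 (limma-trend adjusted p = 0.0722). Batf3, Pf4, Ms4a7 and Cst3 had type 2 above type 1 in every library, as 2.19% of all tested genes did.

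Identity genes of the sorted cells did not pass the test. Ccr2, the receptor that brings monocytes into tissue, was at 6390 to 28078 in type 1 and at 6913, 19272 and 56757 in type 2, a fold of 0.61 ± 0.69 (limma-trend adjusted p = 0.693). Itga4, the integrin that separates MDM from microglia, had a fold of 0.03 ± 0.29, Ptprc (CD45) -0.45 ± 0.29, Itgam (CD11b) 0.73 ± 0.40 and Csf1r, the growth factor receptor of macrophages, 0.86 ± 0.43 (limma-trend adjusted p = 0.965, 0.465, 0.397 and 0.37). P2ry12, a purine receptor of microglia, was at 144 to 6505 in type 1 and at 1848, 685 and 23408 in type 2, so that type 2 transplanted replicate 3 stood highest. Ly6c2, Cx3cr1, Adgre1 and Lyz2 had folds of 0.23 ± 0.98, 1.01 ± 0.49, 1.25 ± 0.41 and 1.44 ± 0.58 without a call (limma-trend adjusted p = 0.929, 0.354, 0.216 and 0.282). Apoe, a lipid carrier, had 1.65 ± 0.47 and Il1b, an inflammatory cytokine, 1.78 ± 0.69 (limma-trend adjusted p = 0.184 and 0.266).

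Genes of MHC class II, the molecules that show antigen to helper T cells, had no call among 11 members over both models, with a median of 0.31. The models went opposite ways. In transplanted libraries the median was 0.99 and 2 of the 11 were called higher in type 2. In spontaneous libraries, with 1 of type 2, it was -0.86 and 0 of the 11 folds were positive. H2-Ab1 was at 137270 to 618440 in type 1 and 285390, 371210 and 237950 in type 2, and its fold was 0.32 ± 0.47. Ciita, the regulator of these genes, had a fold of 0.23 ± 0.39 and Cd74, the invariant chain, 0.31 ± 0.56 (limma-trend adjusted p = 0.775, 0.801 and 0.815 in the order H2-Ab1, Ciita, Cd74). The checkpoint ligand Cd274 (PD-L1) had 0.45 ± 0.41 and the cell cycle gene Mki67 0.15 ± 0.67 (limma-trend adjusted p = 0.613 and 0.933). Type I interferon response genes had no call among 30. Their mean level was 15.17 in type 1 spontaneous replicate 2 and 13.60 in type 2 transplanted replicate 3, against 11.04 to 11.86 in the other 7 libraries, so that 1 library of each type stood high. Oxidative phosphorylation genes had a median fold of 0.46 over 30 members, 25 positive, none called, and in 9 of the 30 every type 2 library exceeded every type 1 library, beside 2.19% of all tested genes.

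**Figure D3:**
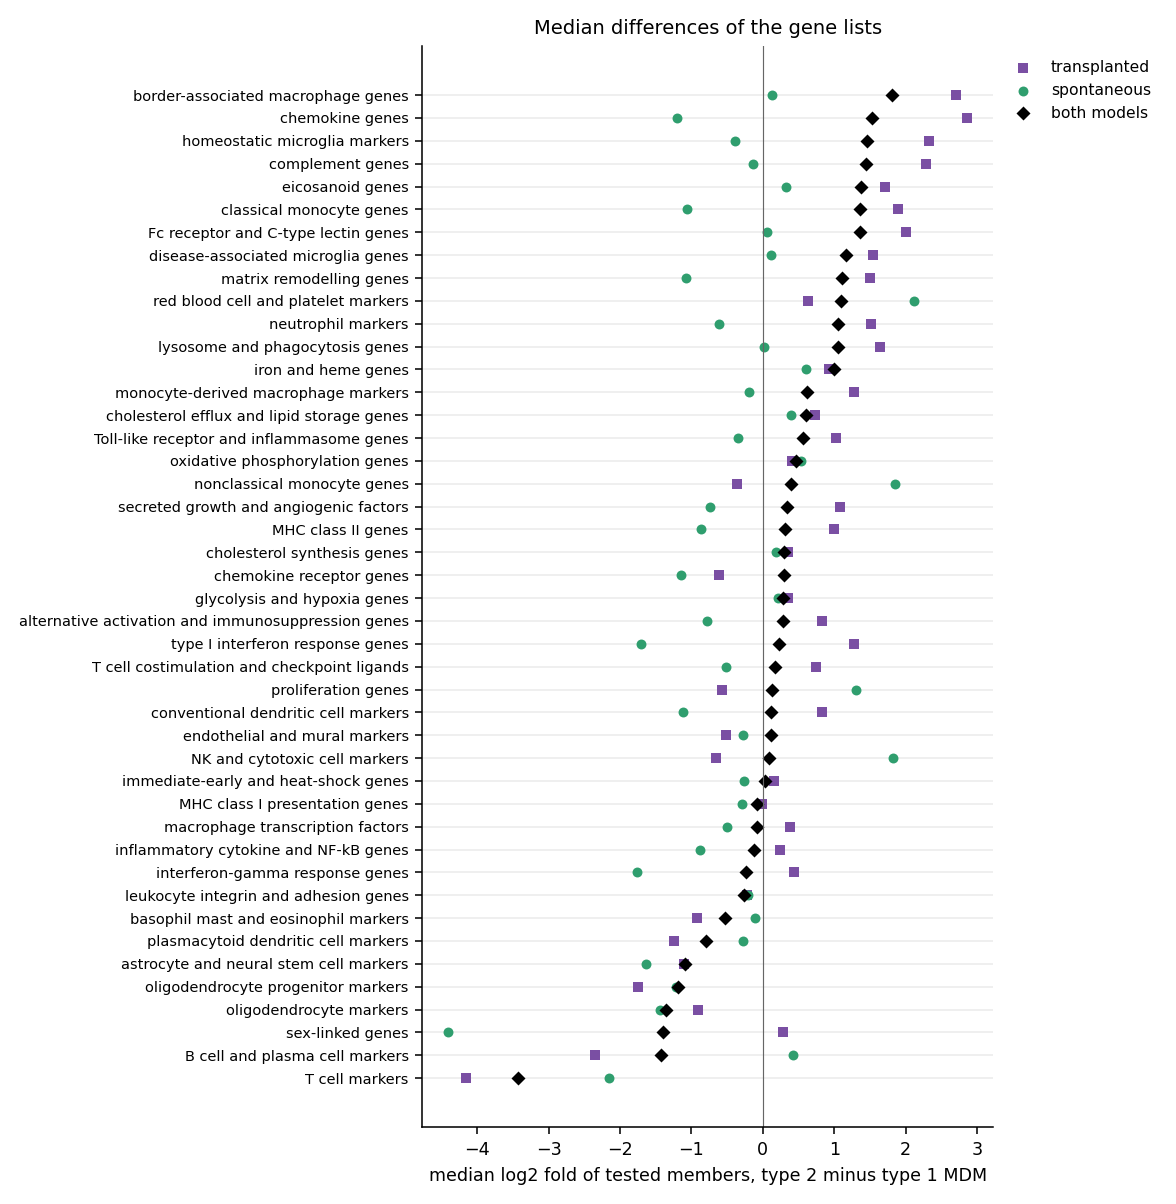
Median log2 fold (type 2 minus type 1) of the tested members of each list, over both models (diamonds), in transplanted (squares) and in spontaneous libraries (circles). T cell markers lie lowest over both models, at -3.43, border-associated macrophage genes lie at 2.71 in transplanted and 0.13 in spontaneous libraries, and nonclassical monocyte genes lie the other way, at -0.36 and 1.85.

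Within the transplanted model, 2 type 2 libraries were set against 4 type 1 libraries, and 311 of 15425 genes were called (2.02%). Of these, 97 rose in type 2 (0.629%) and 214 fell (1.39%), and 47 of the 49 genes that fell over both models, and Gatm, were among them. The count ranged from 20 to 2093 without 1 library. Macrophage genes were among the rises. Arg1, the arginase that marks alternative activation, was at 53.6, 23.6, 62.6 and 37.8 in type 1 and at 3181 and 5047 in type 2, a fold of 6.55 ± 0.45 (limma-trend adjusted p = 0.00228) that stayed called without any 1 library. Chil3, a chitinase-like protein of monocytes and alternatively activated macrophages, was at 112 to 323 in type 1 and at 12382 and 25300 in type 2 (6.57 ± 0.68, limma-trend adjusted p = 0.00672). Thbs1, a matrix glycoprotein, rose by 5.70 ± 1.04, the chemokine Ccl24 by 6.37 ± 1.20 and Pf4 by 4.60 ± 0.88 (limma-trend adjusted p = 0.0373, 0.0398 and 0.0410); each of these 3 calls was lost in 5 of 9 fits without 1 library. Genes named for the transplanted contrast alone were chosen after their values were seen.

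Mrc1, Fcgr2b, C3ar1, Trem2, Stab1, Mmp14 and Spp1 rose in the same contrast. Mrc1, the mannose receptor, was at 47.2 to 79.2 in type 1 and at 1193 and 740 in type 2 (3.83 ± 0.48, limma-trend adjusted p = 0.0145). Fcgr2b, the inhibitory receptor for IgG, was at 2065 to 3090 in type 1 and at 11597 and 23327 in type 2, and C3ar1, the receptor for complement C3a, at 670 to 1384 and at 5931 and 18971. Their folds were 2.70 ± 0.31 and 3.51 ± 0.48 (limma-trend adjusted p = 0.0118 and 0.0180). Trem2, a lipid receptor, rose by 3.36 ± 0.64, the scavenger receptor Stab1 by 2.62 ± 0.48, the metalloproteinase Mmp14 by 2.17 ± 0.26 and Spp1, osteopontin, by 3.01 ± 0.40 (limma-trend adjusted p = 0.0403, 0.0373, 0.0118 and 0.0176). Of the 9 fits without 1 library, 2 lost the call of Fcgr2b, 4 those of Mrc1, C3ar1, Trem2, Mmp14 and Spp1, and 5 that of Stab1. By list, 5 of 17 complement genes, 5 of 25 alternative activation genes, 4 of 12 border-associated macrophage genes, 4 of 19 Fc receptor and lectin genes, 4 of 23 matrix genes, 4 of 28 MDM markers and 3 of 27 disease-associated microglia genes rose, and none of these lists had a member that fell. Homeostatic microglia markers moved with them: 2 of 27 rose, 26 of 27 folds were positive, and the median was 2.32. Their mean level was 8.97 to 9.95 in type 1 transplanted libraries and 10.36 and 12.91 in those of type 2, without overlap, and their part in these rises was not tested. Of 21 T cell markers 15 fell, with a median of -4.15. The T cell list (12.35 to 12.74 in type 1 transplanted libraries, 9.59 and 7.29 in type 2) and the border-associated macrophage list (6.00 to 6.58, 9.18 and 9.19) thus had opposite orders over the same libraries, and the part of either in the other was not tested.

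Large falls in the transplanted model included genes at or near 0 in type 2. Dtx1, a regulator of Notch signalling in lymphocytes, was at 851 to 1678 in type 1 and at 16.7 and 0 in type 2 (-8.32 ± 0.99, limma-trend adjusted p = 0.0118). Dntt, the DNA polymerase that adds bases to antigen receptor joints in lymphocyte precursors, was at 80.0, 62.0, 554 and 571 in type 1 and had no read in type 2 transplanted libraries, at least 102-fold lower with 3 reads per library as the floor. Klk1, a kallikrein on the plasmacytoid dendritic cell list, was at 55.2 to 352 in type 1 and also without reads, at least 61.7-fold lower. Both genes had no read in any of the 3 spontaneous MDM libraries either. Cd163l1, a scavenger receptor family member, was at 174 to 679 in type 1 and without reads in both type 2 transplanted libraries, at least 103-fold lower. Of the 9 fits without 1 library, 3 lost the call of Dtx1 and 4 those of Dntt, Klk1 and Cd163l1.

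Within the spontaneous model 1 type 2 library stood against 2 of type 1, and its spread was assumed to be that of the other groups. The calls therefore describe that library, and a difference between tumour types cannot be told apart from what is particular to it. There 6 genes were called (0.0389%), each of them lower in the type 2 library, while 1638 reached an unadjusted p under 0.05. Cd3e and Bcl11b were 2 of the 6, with folds of -5.30 ± 0.51 and -6.50 ± 0.64 (limma-trend adjusted p = 0.0239 for both). Spint1, an inhibitor of serine proteases, was at 18063 and 19977 in type 1 and at 53.6 in type 2 (-8.44 ± 0.46, limma-trend adjusted p = 0.000543). The other 3 were Gt(ROSA)26Sor, the transcript of the Rosa26 locus, at 470 and 518 against 1.07, Hmga1b at 1592 and 5274 against 59.0, and 0610042G04Rik at 408 and 487 against 17.2. These 4 genes were named because the count was small, after their values were seen. The microglia library of the same tumour class and description number, type 2 spontaneous replicate 3, was low in all 4 as well: Spint1 was at 17.1 there and at 9458 to 31439 in the other 11 microglia libraries, 0610042G04Rik at 4.28 against 256 to 696, and Hmga1b at 35.9 against 273 to 1525. Gt(ROSA)26Sor was at 0 in it, at 5.19 in type 2 spontaneous replicate 1 and at 166 to 974 in the other 10. Without type 1 spontaneous replicate 1 the spontaneous contrast called 230 genes, and with a pseudocount of 8 it called 2.

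In the interaction of tumour type with model 5 genes were called (0.0324%), with 2369 at an unadjusted p under 0.05. This contrast rests on the same 1 type 2 spontaneous library, in which Spint1 and 0610042G04Rik were low in both cell types. All 5 had a positive interaction, the transplanted fold minus the spontaneous fold. Chil3 had 12.64 ± 1.17: in spontaneous libraries it was at 41610 and 219840 in type 1 and 1422 in type 2, the reverse of the order in transplanted ones. Arg1 had 8.63 ± 0.78, with 4333 and 7912 in type 1 spontaneous and 1383 in type 2 spontaneous (limma-trend adjusted p = 0.0145 for both genes). Spint1 had 10.66 ± 0.56, Cd93, a C-type lectin of myeloid and endothelial cells, 5.47 ± 0.59 and 0610042G04Rik 5.25 ± 0.59 (limma-trend adjusted p = 0.000419, 0.0343 and 0.0400). Without 1 library the count ran from 1 to 1039, and of 8 such fits 0 lost the call of Spint1, 3 that of Arg1, 5 those of Chil3 and Cd93 and 6 that of 0610042G04Rik. The T cell list was lower in type 2 in both models, with medians of -4.15 and -2.16, and none of its members was called in this interaction.

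**Figure D4:**
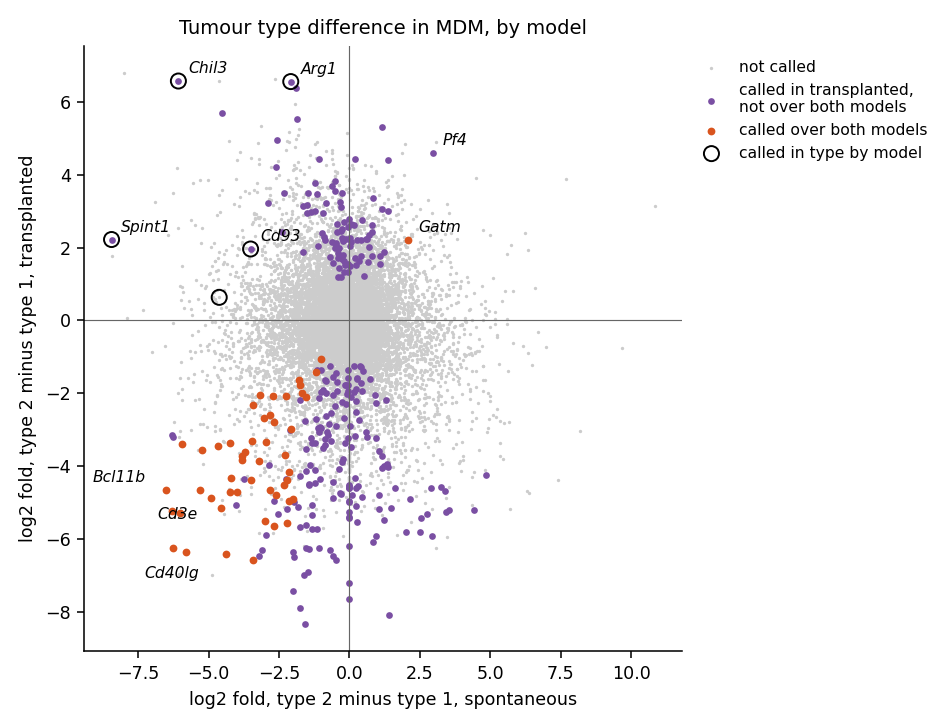
Log2 fold of each of 15425 genes, type 2 minus type 1, in spontaneous (horizontal axis) against transplanted MDM libraries (vertical axis). Genes called over both models lie in the lower left, apart from Gatm in the upper right. The circled genes called in the type by model interaction include Arg1 and Chil3, whose folds are positive in transplanted and negative in spontaneous libraries.

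Microglia of the same tumour types and models were set beside the MDM. In 12 microglia libraries 15 of 15192 genes were called between the tumour types (0.0987%), all lower in type 2, with 1198 at an unadjusted p under 0.05. The limma-trend count was 0 in 6 of the 12 fits that left out 1 library, and 0 with the filter at 50 normalised counts (817 genes at an unadjusted p under 0.05). None of the 50 genes called in MDM was among them. Of the 50, 42 were tested in microglia, 29 had a negative fold, the median was -0.31 and the lowest adjusted p from limma-trend was 0.116. That gene was Olig2, at 4.67 to 127 in type 1 and 0 to 8.38 in type 2 microglia. Sox2, which missed the threshold in MDM, was among the 15, with a microglia fold of -5.77 ± 0.82 (limma-trend adjusted p = 0.0269). T cell markers summed to 215 to 5251 normalised counts in microglia and to 4488 to 204328 in MDM, overlapping where type 1 transplanted microglia reached above type 2 spontaneous MDM. Cd3e was at 3.22 to 658 in type 1 and 0 to 102 in type 2 microglia (-1.07 ± 1.07). Paip1 was at 1397 to 1683 in all 6 type 1 microglia libraries. In type 2 it was at 234 to 388 in 4 libraries and at 1504 and 1781 in the other 2 (-1.56 ± 0.47, limma-trend adjusted p = 0.336).

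A test of whether the tumour type difference itself differed between MDM and microglia called 85 of 17216 genes (0.494%), 30 with a higher and 55 with a lower difference in MDM, and 10 of the 50 genes were among them. The fit took MDM and microglia libraries as independent, and with the replicate number as a block it called 4. Sema6c had -5.53 ± 0.66, a value that depends on the pseudocount because the type 2 MDM libraries held no read of it and that ran from -5.84 to -2.73 over the alternatives, with 95.3 to 438 in type 1 and 128 to 353 in type 2 microglia, where every library of both types held reads. Foxo1 was at 936 to 1529 in type 1 and 732 to 1582 in type 2 microglia, and its difference of differences was -2.25 ± 0.40. Mfhas1, at 1072 to 1548 and 599 to 1931 in microglia, had -2.24 ± 0.46, Tmem64 -2.65 ± 0.47 and Dnaja4, a heat-shock co-chaperone, -1.75 ± 0.33 (limma-trend adjusted p = 0.00216, 0.0200, 0.0385, 0.0200 and 0.0272 from Sema6c to Dnaja4). Cd40lg had -6.72 ± 1.08 and Il7r -4.37 ± 0.91 (limma-trend adjusted p = 0.0143 and 0.0396), and Cd40lg was at 0 in 10 of 12 microglia libraries. The other 3 were BC106179 and the pair 1810073O08Rik and 4930417O13Rik, which had no read in any of the 12 microglia libraries, so that their value is that of the MDM alone. Sema6c kept its call in all 24 alternative fits of this interaction, while Il7r lost it in 13. Cd3e was not called, at -3.87 ± 1.47 (limma-trend adjusted p = 0.23).

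**Figure D5:**
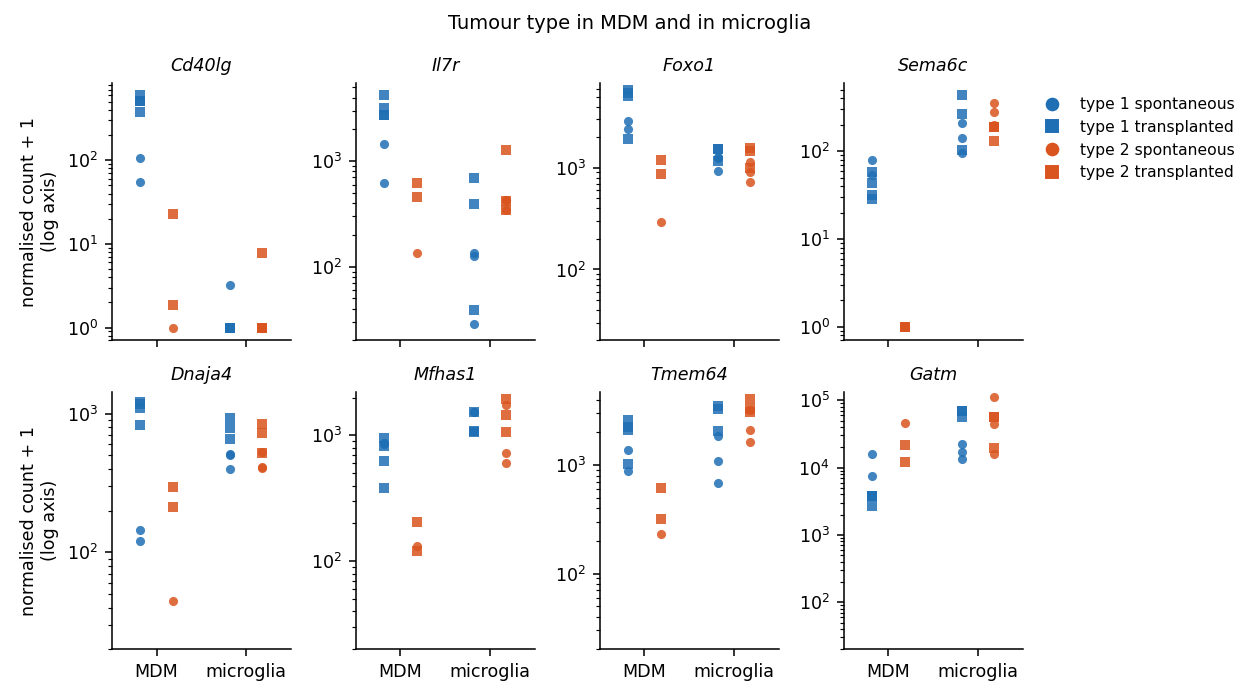
Normalised count + 1 (log axis) of 7 genes called in the test between cell types, and of Gatm, in the 9 MDM and 12 microglia libraries, coloured by tumour type and shaped by model. Sema6c is at 0 in the 3 type 2 MDM libraries and at 128 to 353 in type 2 microglia, and Foxo1 differs by type in MDM while its types overlap in microglia.

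Some measures varied by library rather than by tumour type. Xist, the RNA of the inactive X chromosome, was at 1141 to 4132 in 3 of 6 type 1 and at 2106 and 2508 in 2 of 3 type 2 MDM libraries, and at 0 to 22.6 in the other 4. Type 2 transplanted replicate 1 was highest in NK markers, and replicate 3 was highest in homeostatic microglia markers, at 12.91 against 8.97 to 12.62 in type 1. Leaving out the former gave 48 calls over both models, 30 of them among the 50, and leaving out the latter gave 30, 27 of them among the 50. With the NK list as a covariate 297 genes were called, all 50 among them, and with the microglia list as a covariate 25, with 22 of the 50. With the T cell list as a covariate, chosen after seeing the data, 127 genes passed, of which 109 rose and 18 fell in type 2, and 1 of them was among the 50. The list holds 11 of the 50, which are fitted on a level that includes them, and it lay lower in type 2 within each model. Loss of calls was thus in part built in, and this fit cannot decide what the calls rest on. Without type 1 spontaneous replicate 2 and type 2 transplanted replicate 3, the libraries highest in interferon response genes, 85 genes were called and 38 of the 50 were among them, an alternative chosen after seeing the data.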

How the data were processed

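RNA was extracted with TRIzol, chloroform and the miRNeasy Micro kit and libraries were made with the SMART-Seq v4 Ultra Low Input kit, per the labels' protocols. STAR 2.7.8a, DESeq2 (version not given in the sources used here) and build mm10 are named in the submitters' processing notes. The authors deposited 1 table of 30749 genes by 21 libraries on a log2 scale with a floor of 4.2203. Its values were inverted to whole reads (100% within 1e-06) and 1 size factor per library, and the gene names matched RefSeq GRCm38.p6 for 96.33% of symbols. The deposited unit was log2 and not counts, and limma-trend (limma 3.58.1, R 4.3.3) was chosen. It was fitted to log2(normalised count + 1) from the recovered reads. A fit with voom on those reads called 18 genes over both models, beside 50.

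Tested genes had at least 10 normalised counts in at least 3 libraries, and 1 was added before taking log2. Contrasts were tumour type with model as a covariate, tumour type within each model, its interaction with model, the same contrast in 12 microglia libraries, and its difference between cell types with the models weighted as in MDM. A bound against a group without reads used 3 reads per library, and such bounds cover counting error only. The script was tested on simulated data.

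The members, the 45 gene lists and the named genes were chosen with earlier results of these data known. By rule the text names up to 10 largest rises and falls with a mean of at least 50 normalised counts, fixed genes, up to 4 members per list and 5 genes largest in both models, and it says where others were added. Sequences came from RefSeq GRCm38.p6. Between same-numbered MDM libraries of different groups, correlations of deviations from the group means were -0.024, 0.077, -0.082, 0.049 and -0.026. The type 2 spontaneous library was left out, and in groups of 2 libraries the deviations mirror each other. The check therefore cannot exclude a pairing by number.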

Additional observations from a re-analysis of the deposited data

Results flagged for a closer look

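Among 150 values looked at in the 4 type 1 transplanted MDM libraries, 10 had 1 library far from the other 3, with a gap to the nearest library above 0.829 of the whole range. Chance alone gives about 1 in 20 such groups. Type 1 transplanted replicate 1 was lowest for Slain1 (0.858), Foxo1 (0.862) and Flt3 (0.831) and highest for Cd93 (0.877) and the eicosanoid list (0.847). Replicate 3 was lowest for Gatm (0.936) and Sall1 (0.83), and replicate 4 was lowest for Nt5e (0.933). Replicate 2 was highest for the MHC class II list (0.933) and lowest for the cholesterol efflux list (0.879).

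The tumour type difference differed between MDM and microglia by the limma-trend interaction, in log2 units as MDM minus microglia, for Cd40lg (-6.722), Sema6c (-5.526), Il7r (-4.365), Tmem64 (-2.648), Foxo1 (-2.253), Mfhas1 (-2.242) and Dnaja4 (-1.75). It also differed for Cd163l1 (-5.123), Dntt (-4.992), Klk1 (-4.364) and C3ar1 (2.218). In microglia Dntt reached at most 1.46, Klk1 2.92 and Cd163l1 2.57 normalised counts, so their differences are close to those of the MDM alone. Between the models, as transplanted minus spontaneous and with 1 type 2 spontaneous library, it differed in MDM for Chil3 (12.64), Spint1 (10.66), Arg1 (8.635), Cd93 (5.469) and 0610042G04Rik (5.255).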

How the results depend on the processing

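Over both models 50 genes were called, and leaving out 1 library gave 9 to 310. The count was 29 on the deposited values, 18 with voom, 5 with array weights (whose fit stopped short of convergence), 579 with all 21 libraries in the fit, 2 without the model term and 570 in transplanted libraries alone. It was 297 with the NK list and 25 with the microglia list as a covariate. Without the type 1 transplanted libraries the fit sets 1 type 2 against 2 type 1 spontaneous libraries, so no count is given for it. Of alternatives added after seeing the data, the T cell list as a covariate gave 127, with 1 of the 50 among them, and leaving out the 2 libraries highest in interferon genes gave 85. Under the T cell covariate the folds of Lat (0.484), Lck (3.111) and Cd79a (7.153) turned positive. Lat and Lck are members of that list, which holds 11 of the 50, so loss of calls in that fit was in part built in. Without 1 library the transplanted contrast called 20 to 2093 genes, the spontaneous 1 to 230, the interaction with model 1 to 1039, microglia 0 to 26 and the difference between cell types 14 to 508. A pseudocount of 8 gave 2 in spontaneous libraries, 8 in microglia and 145 between cell types. In microglia a filter at 50 gave 0 (817 at an unadjusted p under 0.05) and quantile normalisation 9. The causes were not tested.

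With the replicate number as a block, 0 genes were called over both models (779 at an unadjusted p under 0.05), 0 in transplanted (2320), 0 in spontaneous (1217) and 0 in microglia (1278), 1 in the interaction with model and 4 between cell types. The same number marks no stated pairing, and titles and descriptions number 3 libraries differently. Between MDM and microglia of the same class and description number, the deviations from the group means correlated at 0.035 to 0.241 over 7 pairs, above 0.1 in 2 of them, a check added after seeing the data. Those 2 were the type 1 spontaneous pairs. Their MDM group holds 2 libraries, whose deviations mirror each other, so the 2 values are not independent. The same holds for the type 2 transplanted pairs.

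For single genes, 2105 alternative values kept their side of the threshold, with the same direction or a change of sign within 1 standard error. Of the rest, 620 lost the call, 70 gained one and 3 turned as given above. Another 71 changed sign by more than 1 standard error without a call in either fit. These 71 were kept apart from the turned values after this was seen. Contrasts that need the type 2 spontaneous library were not run without it. Read depth was not varied.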

Other observations

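Type 2 spontaneous replicate 3 had very low levels of some genes in both of its cell types. Over the 8 tumour classes and description numbers with both an MDM and a microglia library, genes were counted that lay at least 10-fold below, or above, every other library in both, with at least 50 normalised counts on the higher side. This count was chosen after the values were seen and carries no test. It gave 2 genes below for type 2 spontaneous replicate 3, 1 gene above for type 1 spontaneous replicate 2, and 0 for the other 6. The 2 genes were Spint1, at 53.6 in MDM and 17.1 in microglia against 990 to 31439 in the other libraries, and 0610042G04Rik, at 17.2 and 4.28 against 239 to 696. The gene above was C1rb, a complement protease copy, at 93.7 in MDM and 187 in microglia against 0 to 2.23. The labels do not say that libraries of the same number came from the same animal.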
